A study of Rattus norvegicus with 24 samples.

Results

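The genes described here are 36 markers and regulators of blood and lymphatic vessels, followed in the mammary glands of rats given estradiol. Members were all probe sets that the platform annotation gives to 1 of these genes alone. On the array 32 of the 36 genes had such a probe set, 46 probe sets of 31042 tested, and Cdh5, Robo4, Pdgfb and Ednrb had none and are not analysed here. By role they comprised 18 genes of blood vessel endothelium (26 probe sets), 4 genes of lymphatic endothelium (6 probe sets), 4 genes of mural cells, the pericytes and smooth muscle around vessels (7 probe sets), and 6 secreted angiogenic or vasoactive factors (7 probe sets).

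The samples were pairs of abdominal mammary glands from Sprague-Dawley rats on postnatal day 33. Per the labels, osmotic pumps under the skin had delivered 17β-estradiol since weaning on day 21, and every animal carried a pump, also those given 0. The 8 groups, each of 3 arrays, were males at 0, 0.1, 1 and 10 µg/kg/day and females at 0, 0.1, 1 and 10 µg/kg/day; doses are given below as these numbers alone. Nothing in the labels ties an array to 1 animal, so the p-values refer to the spread between arrays, some of which may be technical. Whole glands were used, so the RNA came from fat, epithelium, vessels, nerves and any lymph node or muscle taken along.

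The deposited values are signed log values that lie around 0 for each probe set within each sex: of the 12 arrays of a sex, 3 to 9 were above 0 in every probe set. The median of the 12 lay within 0.1 log units of 0 in 94.6% of probe sets in females and 91.2% in males, and neither the absolute level of a gene nor a difference in level between males and females is kept. Values are called log units here because the base of the logarithm is not given in the sources used here, and folds are stated only on the assumption of log2. The presence of endothelial RNA cannot be checked from centred values. Of the arrays, 4 held raised hepatocyte transcripts, with a mean over 15 hepatocyte genes above 1 log unit: male replicates 2 and 3 at 0, male replicate 7 at 1 and female replicate 1 at 0. The widest spread over all probe sets was that of female replicate 4 at 0.1 and male replicate 1 at 0. Counts without the arrays of widest spread stand beside the results they touch. Without the 4 hepatocyte arrays only male replicate 1 is left in males at 0, so counts without them are given for females alone.

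As background, vascular endothelial growth factors drive the growth of vessels: Vegfa acts on blood vessel endothelium mainly through the receptor Kdr, with Flt1 as a receptor that also traps the ligand, while Vegfc acts on lymphatic endothelium through Flt4. The angiopoietins Angpt1 and Angpt2 act on the receptor Tek and govern the quiescence of vessels and their covering by pericytes. In the mammary gland a capillary network runs through the fat pad and around the epithelial ducts, and capillaries of fat also carry the machinery that unloads lipid from lipoproteins.

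Because many of the genes moved together, promoters were read for sequence motifs. RefSeq (assembly GRCr8) gave a promoter of 250 bases before to 50 bases after the start for 22 of the 36 genes, 24 promoters in all, and 14 genes had none in the table used here. The motif GGAAGT, the core bound by ETS factors such as Erg, was searched on both strands and occurred in 22.6% of all 33469 promoters. It occurred in 6 of the 15 promoters of genes that fell in males at 10 (40.0%), in 0 of the 2 promoters of genes that rose and in 1 of the 4 of genes that did not pass. The promoters shown are 3 that hold the motif (the receptors Flt1 and Tie1 and the co-receptor Eng, all lower in males at 10) and that of Vegfc, which rose and whose window lacks it. They lie at chr12:12333180-12333479 on the plus strand (Flt1), chr5:137304932-137305231 on the minus strand (Tie1), chr3:36332029-36332328 on the plus strand (Eng) and chr16:44560838-44561137 on the minus strand (Vegfc). Capitals mark GGAAGT or its reverse complement, and all run 5′ to 3′ along the gene.
Flt1: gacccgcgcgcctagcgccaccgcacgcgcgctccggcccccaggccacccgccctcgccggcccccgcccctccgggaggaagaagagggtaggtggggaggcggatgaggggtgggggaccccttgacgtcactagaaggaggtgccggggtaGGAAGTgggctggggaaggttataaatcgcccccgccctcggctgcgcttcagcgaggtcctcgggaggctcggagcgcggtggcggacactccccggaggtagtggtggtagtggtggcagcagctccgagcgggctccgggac
Tie1: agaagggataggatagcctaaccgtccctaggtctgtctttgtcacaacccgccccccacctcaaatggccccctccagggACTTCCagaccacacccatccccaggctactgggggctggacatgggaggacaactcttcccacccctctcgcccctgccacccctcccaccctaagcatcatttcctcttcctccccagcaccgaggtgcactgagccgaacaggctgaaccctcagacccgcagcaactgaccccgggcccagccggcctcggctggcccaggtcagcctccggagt
Eng: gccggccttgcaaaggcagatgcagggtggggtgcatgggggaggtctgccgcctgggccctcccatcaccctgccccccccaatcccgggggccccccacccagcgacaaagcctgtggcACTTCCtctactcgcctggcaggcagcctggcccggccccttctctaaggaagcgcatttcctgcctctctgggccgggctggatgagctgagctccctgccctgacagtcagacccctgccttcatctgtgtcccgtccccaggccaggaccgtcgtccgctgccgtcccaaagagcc
Vegfc: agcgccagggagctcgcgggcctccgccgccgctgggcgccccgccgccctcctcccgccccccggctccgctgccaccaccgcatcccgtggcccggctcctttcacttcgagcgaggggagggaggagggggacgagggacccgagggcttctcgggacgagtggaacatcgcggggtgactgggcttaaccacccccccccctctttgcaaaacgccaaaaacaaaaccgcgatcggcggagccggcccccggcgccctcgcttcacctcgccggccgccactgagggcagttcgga
The SOX core AACAAT occurred in 4 of the 15 promoters of genes that fell (26.7%), against 11.7% of all promoters. A full estrogen response element, GGTCA and TGACC with 3 bases between them, occurred in 9 of all promoters (0.0269%) and in 0 of those of the genes described. No motif contains another, and a match is a description of the letters in this window alone.

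At the top dose in males, genes of blood vessels, mural cells and most angiogenic factors were lower, while the 2 lymphatic genes that passed were higher. Of the 46 probe sets, 28 fell and 3 rose in males at 10 relative to males at 0 (limma, adjusted p under 0.05), from 20 genes that fell, 3 that rose and 9 that did not pass. Over all probe sets tested, 17.5% passed in this comparison, 9.64% lower and 7.81% higher. The median difference over the 46 was -0.48 log units, against -0.01 over all probe sets. In bulk tissue, fewer cells of a type and less RNA per cell cannot be told apart.

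**Figure D1:**
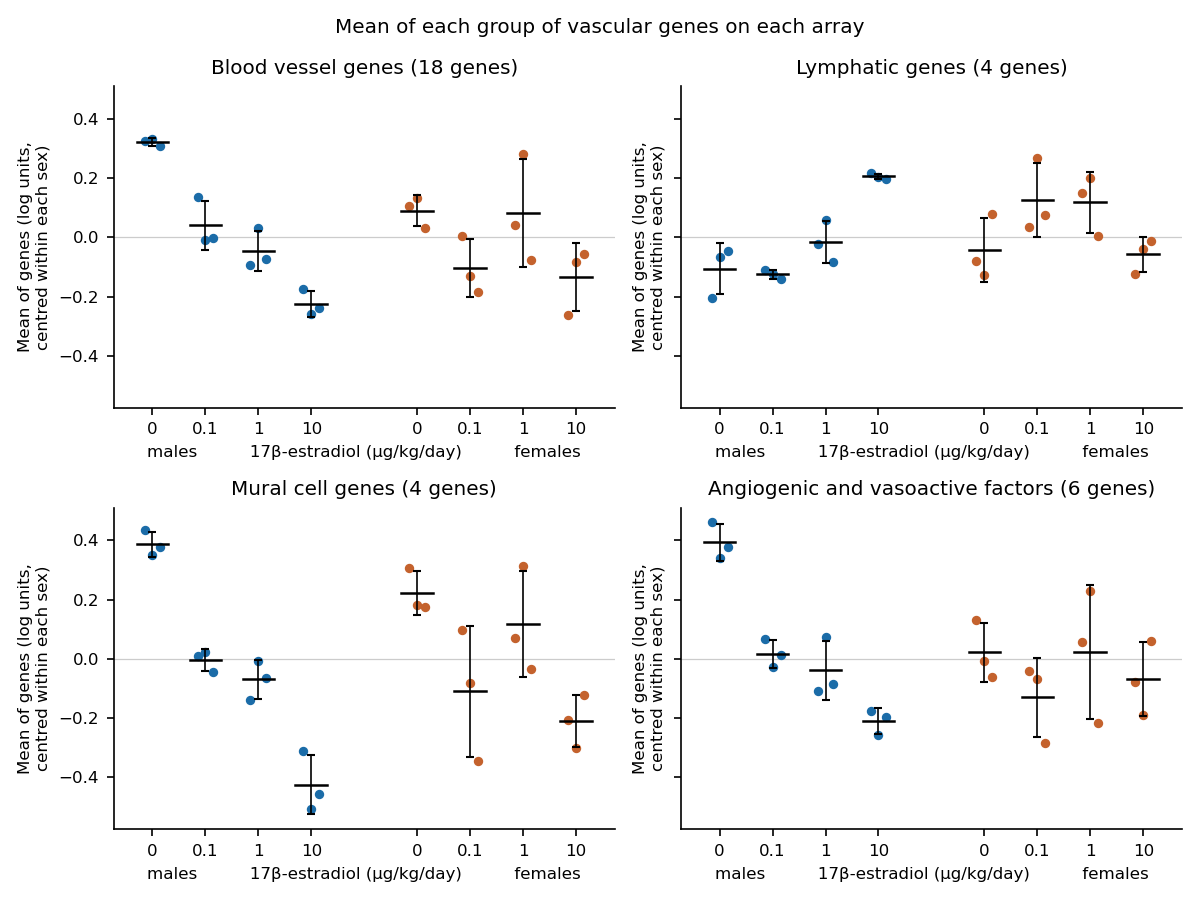
Mean over the genes of each role on each array, in log units centred within each sex, against the dose of 17β-estradiol in µg/kg/day, males in blue and females in orange; bars give the mean ± SD of 3 arrays. In males the means of blood vessel genes, mural cell genes and factors are lowest at 10 and highest at 0, while that of lymphatic genes is highest at 10.

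The same contrast is visible in the mean over the genes of each role on each array, given as description. Blood vessel genes averaged -0.17, -0.26 and -0.24 on the arrays of males at 10, against 0.33, 0.33 and 0.31 on those of males at 0. Mural cell genes averaged -0.31, -0.51 and -0.45 in males at 10, against 0.43, 0.35 and 0.38 in males at 0. Lymphatic genes averaged 0.22, 0.20 and 0.20 in males at 10, against -0.21, -0.07 and -0.05 in males at 0. The 2 groups do not overlap for any of these roles, and the lymphatic genes lie in the opposite order to the others. The factors averaged -0.17, -0.26 and -0.20 in males at 10, against 0.46, 0.34 and 0.38 in males at 0, although Vegfc and Angpt2 among them had the opposite sign.

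Among blood vessel genes, 19 of 26 probe sets fell in males at 10 and 0 rose, and all 26 differences were below 0, with a median of -0.50. The largest difference was that of Gpihbp1, the protein that carries lipoprotein lipase to the inner face of capillaries. It had -0.86, -1.16 and -0.85 log units in males at 10, against 0.64, 0.54 and 0.52 in males at 0, a difference of -1.52 (SE 0.13, adjusted p = 1.31e-06), or 2.88-fold lower if the values are log2. No array at 10 came near those at 0, and the 3 arrays at 1 lay between the 2 groups. Nos3, the endothelial nitric oxide synthase that relaxes vessels, had -0.55, -0.19 and -0.76 in males at 10, against 0.53, 0.58 and 0.55 in males at 0 (difference -1.05, SE 0.23, adjusted p = 0.00414). The spread of Nos3 was wide at 10 and narrow at 0, and the groups did not overlap.

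Esam, Emcn, Eng and Pecam1, which code for proteins of endothelial junctions or of the cell surface, also fell. Esam, an adhesion molecule of endothelial tight junctions, had -0.23, -0.49 and -0.22 in males at 10, against 0.57, 0.41 and 0.39 in males at 0 (difference -0.77, SE 0.13, adjusted p = 0.00042). Emcn, a sialoglycoprotein of capillary and venous endothelium, had -0.05, -0.35 and -0.18 in males at 10, against 0.42, 0.49 and 0.49 in males at 0 (difference -0.66, SE 0.13, adjusted p = 0.00247). Both sets of arrays were separate for these genes. Eng, a co-receptor for transforming growth factor β, had -0.03, -0.17 and -0.21 in males at 10, against 0.30, 0.31 and 0.38 in males at 0 (difference -0.46, SE 0.10, adjusted p = 0.00324). Pecam1, the junction protein CD31, had -0.06, -0.10 and -0.17 in males at 10, against 0.13, 0.32 and 0.18 in males at 0 (difference -0.33, SE 0.11, adjusted p = 0.0433). The groups did not overlap for Eng or Pecam1, but the Pecam1 call was lost on leaving out any 1 of the 6 arrays (differences from -0.36 to -0.27).

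Egfl7, a protein that endothelial cells secrete as vessels form tubes, fell on both of its probe sets. One had -0.21, -0.26 and -0.16 in males at 10, against 0.57, 0.52 and 0.53 in males at 0 (difference -0.75, SE 0.08, adjusted p = 1.12e-05). The other had -0.10, -0.19 and -0.10 in males at 10, against 0.40, 0.31 and 0.36 in males at 0 (difference -0.49, SE 0.08, adjusted p = 0.000692). On both the arrays within a group were close together and the groups stood well apart.

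A group of general endothelial markers did not pass. Plvap, which forms the diaphragms of endothelial pores, had 0.08, -0.04 and 0.02 in males at 10, against -0.12, 0.18 and 0.02 in males at 0, with a difference of -0.003 and a 95% interval of -0.34 to 0.33. Its groups overlapped fully. Cldn5, a tight junction protein, differed by -0.11 (adjusted p = 0.653), and Vwf, the clotting glycoprotein stored in endothelium, by -0.28 (adjusted p = 0.222). Icam2, a leukocyte adhesion molecule, differed by -0.27 and -0.26 on its 2 probe sets (adjusted p = 0.117 and 0.32). These 4 genes and the receptor Tek are the 5 of 18 blood vessel genes without a probe set that passed, and a p that misses the threshold does not show that they stayed the same.

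Of the receptors, Flt1 fell on all 3 of its probe sets. The first had 0.01, -0.37 and -0.16 in males at 10, against 0.55, 0.42 and 0.58 in males at 0 (difference -0.69, SE 0.13, adjusted p = 0.00104). The second had -0.30, -0.41 and -0.31 in males at 10, against 0.63, 0.32 and 0.29 in males at 0 (difference -0.76, SE 0.15, adjusted p = 0.0021). The third had -0.20, -0.21 and -0.17 in males at 10, against 0.36, 0.14 and 0.08 in males at 0 (difference -0.39, SE 0.13, adjusted p = 0.0435). No probe set of Flt1 overlapped between the groups, and the third lost its call without male replicate 1 at 0 (difference -0.30), male replicate 2 at 0 (-0.41) or any 1 of the arrays at 10 (-0.40 to -0.38).

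Kdr, the main receptor of Vegfa, moved little. One probe set had -0.18, -0.16 and -0.06 in males at 10, against 0.20, 0.07 and 0.20 in males at 0 (difference -0.29, SE 0.08, adjusted p = 0.0156), and it lost the call without male replicate 1 at 0, male replicate 3 at 0 or male replicate 11 at 10 (-0.27 to -0.26). The other probe set differed by -0.21 and did not pass (adjusted p = 0.152). Tie1, a partner of Tek, had -0.29, -0.10 and -0.07 in males at 10, against 0.24, 0.53 and 0.33 in males at 0 (difference -0.52, SE 0.12, adjusted p = 0.00512). The Tie1 arrays were separate between the groups. Tek, the angiopoietin receptor, had 0.07, -0.47 and -0.02 in males at 10, against 0.13, 0.10 and 0.21 in males at 0 (difference -0.29, SE 0.14, adjusted p = 0.172).

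The 3 transcription factors of endothelial identity fell. Sox18, which acts in vessel and early lymphatic development, had -0.29, -0.22 and -0.27 in males at 10, against 0.41, 0.23 and 0.63 in males at 0 (difference -0.68, SE 0.11, adjusted p = 0.000436). Erg, an ETS factor that maintains endothelial genes, had -0.35, -0.31 and -0.34 on one probe set in males at 10, against 0.28, 0.39 and 0.28 in males at 0 (difference -0.65, SE 0.12, adjusted p = 0.00115). On the other it had -0.07, -0.09 and -0.27 in males at 10, against 0.41, 0.53 and 0.45 in males at 0 (difference -0.60, SE 0.12, adjusted p = 0.00184). Both factors were lower on every array at 10 than on any array at 0.

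Sox17, which acts in arterial endothelium, had 3 probe sets, all lower. The widest difference was on a probe set with -0.19, -1.03 and -0.66 in males at 10, against 0.93, 0.45 and 0.42 in males at 0 (difference -1.23, SE 0.23, adjusted p = 0.00124). A second had -0.21, -0.21 and -0.37 in males at 10, against 0.76, 0.17 and 0.52 in males at 0 (difference -0.75, SE 0.22, adjusted p = 0.0237). The third differed by -0.38 (adjusted p = 0.0465). The first kept its call on leaving out any single array, while the second lost it without male replicate 1 or 3 at 0 or 11 or 12 at 10 (-0.78 to -0.61). The remaining one lost it without male replicate 1 at 0, where it stood at -0.25, without male replicate 2 at 0 and without any 1 array at 10 (-0.38 to -0.37).

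**Figure D2:**
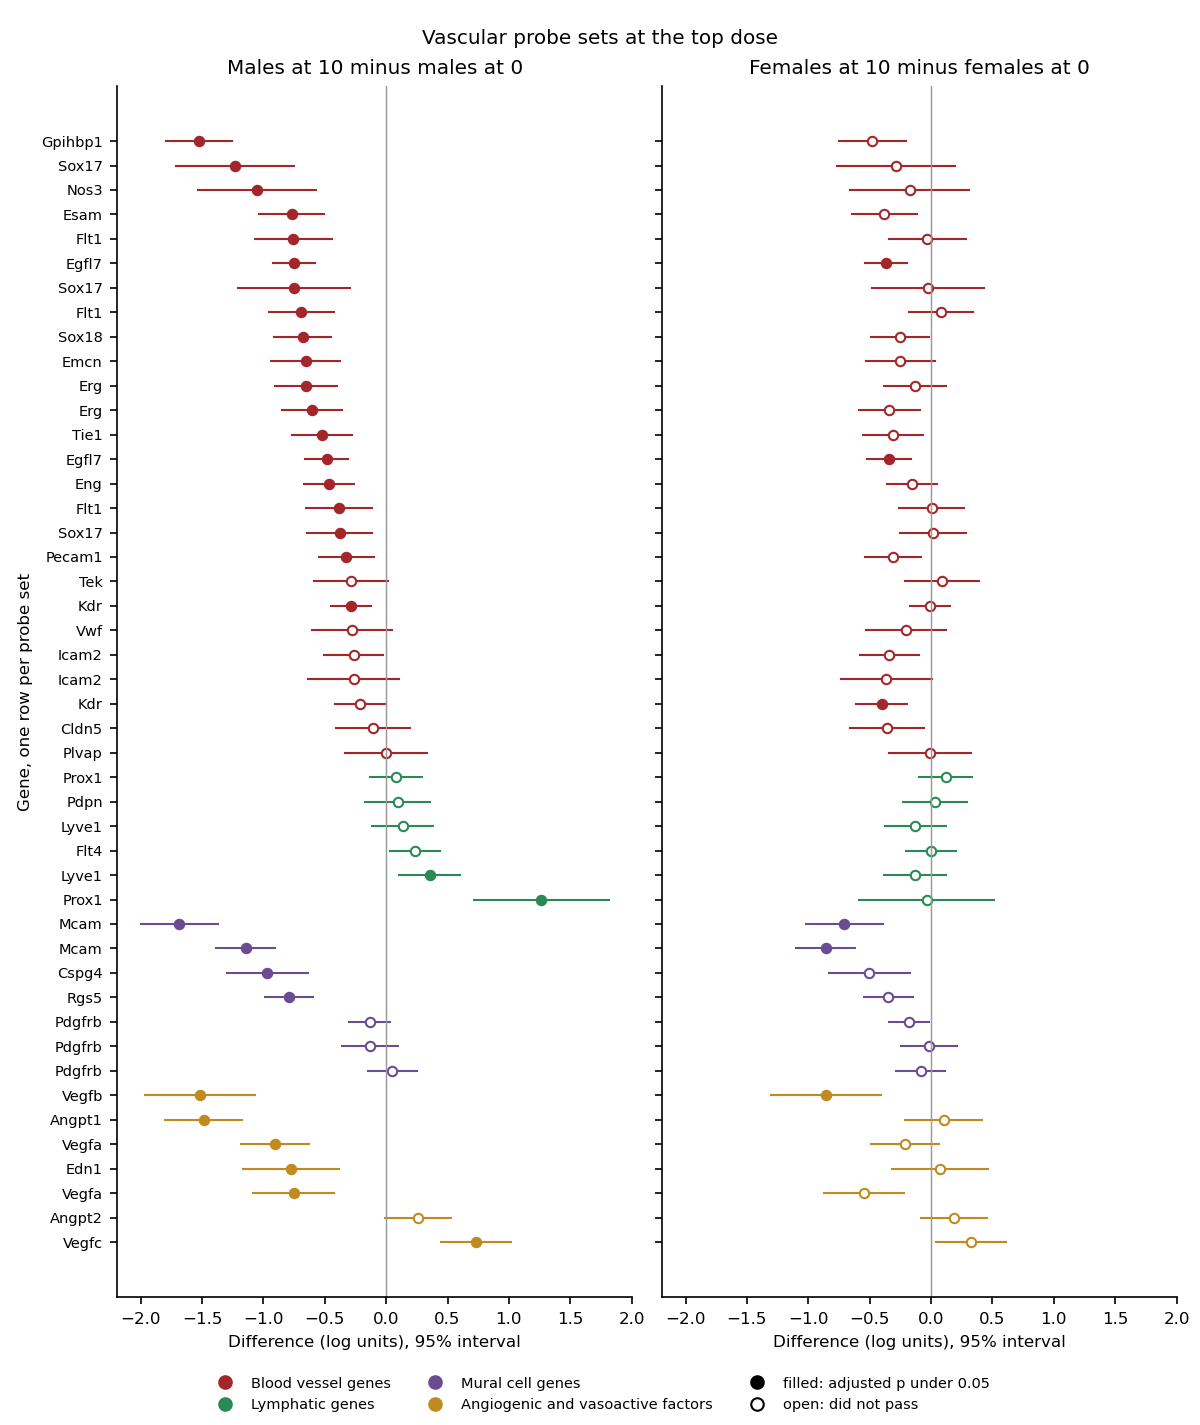
Difference of the 10 dose from 0 for each of the 46 probe sets, in log units with 95% intervals, males on the left and females on the right, coloured by role and filled where the adjusted p was under 0.05. In males the blood vessel rows all lie below 0 and the lymphatic rows all above it, while in females the lymphatic rows lie around 0 and 6 rows are filled, all below 0.

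Lymphatic genes differed from those of blood vessels in sign. All 6 probe sets were above 0 in males at 10 relative to males at 0, with a median of 0.18, and 2 of them passed. Prox1, the transcription factor that specifies lymphatic endothelium and that liver cells also express, had 0.45, 1.00 and 0.83 in males at 10, against -1.09, -0.21 and -0.21 in males at 0 (difference 1.26, SE 0.26, adjusted p = 0.0029). Male replicate 1 at 0 lay far below the other control arrays, and the call was kept on leaving out any single array, at 0.97 without that one. A second probe set of Prox1 differed by 0.08 and did not pass (adjusted p = 0.638).

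Lyve1, a hyaluronan receptor of lymphatic endothelium and some macrophages, had 0.25, 0.18 and 0.16 in males at 10, against -0.14, -0.08 and -0.25 in males at 0 (difference 0.35, SE 0.12, adjusted p = 0.0487). The groups were separate, but the call was lost on leaving out any 1 of the 6 arrays (differences from 0.31 to 0.39), and the second probe set differed by 0.14 (adjusted p = 0.465). Flt4, the receptor of Vegfc, had 0.17, 0.18 and 0.18 in males at 10, against -0.20, -0.01 and 0.04 in males at 0 (difference 0.23, SE 0.10, adjusted p = 0.105). Pdpn, a membrane glycoprotein of lymphatic endothelium that basal epithelium also carries, differed by 0.09 (adjusted p = 0.65).

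A further list of lymphatic genes, beyond the 36, gave 5 genes higher and 1 lower of 13 measured in males at 10. By probe set 6 of 21 were higher and 1 lower, where 7.81% and 9.64% of all probe sets were. Mmrn1, a matrix glycoprotein that lymphatic endothelium secretes, had 0.54, 1.17 and 0.68 in males at 10, against -1.36, -0.10 and -0.28 in males at 0 (difference 1.38, adjusted p = 0.00572). Reln, a secreted matrix protein of lymphatic vessels, had 0.21, 0.47 and 0.37 in males at 10, against -1.56, -0.77 and -0.37 in males at 0 (difference 1.25, adjusted p = 0.00365). Both were lowest on male replicate 1 at 0, as Prox1 and the mean of luminal epithelial markers were. Gja1, a gap junction protein of many cell types, rose by 1.00 (adjusted p = 0.000323), and Adm, a peptide that acts on lymphatic and blood vessels, was the gene that fell (difference -1.50, adjusted p = 3.3e-05). The median of the list was -0.01, as over all probe sets. T cell markers, which an included lymph node would bring, averaged -0.16, 0.76 and 0.79 in males at 10, against -1.70, 0.31 and -1.17 in males at 0. Luminal epithelial markers averaged 0.03, 0.42 and 0.33 in males at 10, against -1.08, -0.71 and -0.10 in males at 0. The part of either set of markers in the lymphatic values was not tested.

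Among mural cell genes 4 of 7 probe sets fell in males at 10 and 0 rose. Mcam, the adhesion molecule CD146 of pericytes, smooth muscle and endothelium, had -0.82, -0.98 and -0.99 in males at 10, against 0.78, 0.66 and 0.82 in males at 0 (difference -1.68, SE 0.15, adjusted p = 1.83e-06), or 3.22-fold lower if the values are log2. Its second probe set had -0.55, -0.79 and -0.74 in males at 10, against 0.55, 0.42 and 0.38 in males at 0 (difference -1.15, SE 0.11, adjusted p = 5.61e-06). Of the 46 probe sets, the first had the largest difference in size in this comparison. Cspg4, the NG2 proteoglycan of pericytes, had -0.39, -0.69 and -0.52 in males at 10, against 0.49, 0.27 and 0.53 in males at 0 (difference -0.97, SE 0.16, adjusted p = 0.000431). Rgs5, a regulator of G protein signalling in pericytes, had -0.31, -0.42 and -0.42 in males at 10, against 0.43, 0.51 and 0.28 in males at 0 (difference -0.79, SE 0.09, adjusted p = 2.45e-05).

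Pdgfrb, the receptor through which endothelium recruits pericytes and which fibroblasts also carry, did not follow them. Its 3 probe sets differed by -0.13, -0.13 and 0.05, none passed, and all overlapped between the groups. In the further list of mural and smooth muscle genes, 6 of 14 genes fell and 0 rose. By probe set 8 of 18 fell, where 9.64% of all probe sets did. Abcc9 and Kcnj8, which together form a potassium channel of pericytes, fell by 1.36 on the most changed probe set of Abcc9 (adjusted p = 0.000753) and by 0.37 (adjusted p = 0.0233). Ndufa4l2, a mitochondrial protein found in pericytes, fell by 1.11 (adjusted p = 0.000222).

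Of the factors, Angpt1, the agonist of Tek made by mural and other stromal cells, had -0.85, -0.50 and -0.59 in males at 10, against 0.98, 1.02 and 0.54 in males at 0 (difference -1.49, SE 0.15, adjusted p = 5.92e-06), or 2.80-fold lower if the values are log2. Angpt2, which can oppose Angpt1 at Tek, had 0.41, 0.31 and 0.20 in males at 10, against -0.01, 0.01 and 0.13 in males at 0 (difference 0.26, SE 0.13, adjusted p = 0.17). Angpt1 fell on every array at 10, and Angpt2 was higher on every array at 10 without passing the test.

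The vascular endothelial growth factors did not move alike. Vegfb, a ligand of Flt1, had -0.45, -0.94 and -0.87 in males at 10, against 0.92, 0.67 and 0.70 in males at 0 (difference -1.52, SE 0.21, adjusted p = 0.000114). Vegfa, the main ligand of Kdr, had -0.51, -0.47 and -0.39 in males at 10, against 0.58, 0.35 and 0.42 in males at 0 (difference -0.90, SE 0.13, adjusted p = 0.000166). Its second probe set had -0.49, -0.53 and -0.36 in males at 10, against 0.37, 0.17 and 0.34 in males at 0 (difference -0.75, SE 0.16, adjusted p = 0.00291). Vegfa and Vegfb thus fell on every probe set measured. Vegfc, the ligand of Flt4, had 0.43, 0.54 and 0.83 in males at 10, against -0.23, -0.16 and -0.01 in males at 0, a rise of 0.73 (SE 0.14, adjusted p = 0.00116). Edn1, the vasoconstrictor peptide endothelin 1, had -0.09, -0.46 and -0.37 in males at 10, against 0.64, 0.25 and 0.53 in males at 0 (difference -0.78, SE 0.19, adjusted p = 0.00793).

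**Figure D3:**
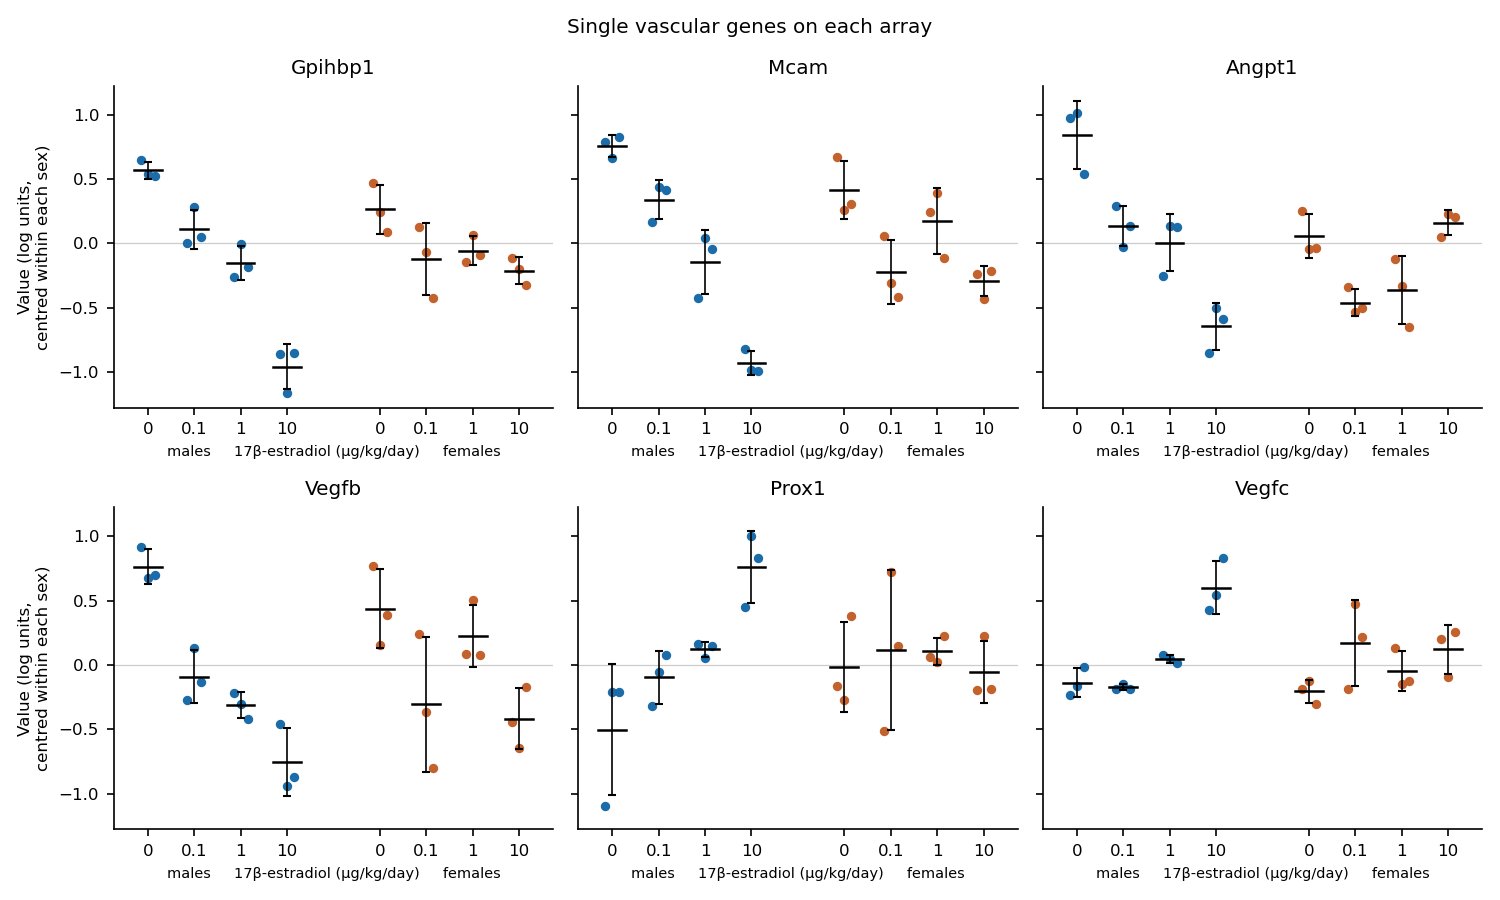
Values of 6 genes on each array, in log units centred within each sex, against the dose of 17β-estradiol in µg/kg/day, males in blue and females in orange; bars give the mean ± SD of 3 arrays. Gpihbp1, Mcam, Angpt1 and Vegfb are lowest in males at 10, Prox1 and Vegfc highest, and Angpt1 in females at 10 lies at or above its values at 0.1 and 1.

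Other angiogenic factors beyond the 36 followed in both directions, with 8 genes lower and 2 higher of 22 measured in males at 10. By probe set 11 of 31 were lower and 2 higher, where 9.64% and 7.81% of all probe sets were. Among those lower were Cxcl12, a chemokine that guides endothelial cells (difference -0.85, adjusted p = 2.3e-05), Ptgs2, the inducible cyclooxygenase (-1.29, adjusted p = 0.000107), and Epas1, a hypoxia-inducible factor of endothelium (-0.52, adjusted p = 0.00177). Another probe set of Cxcl12 did not pass, with -0.12, -0.002 and -0.13 in males at 10, against -0.08, 0.07 and 0.07 in males at 0. Adamts1 and Thbs2, both inhibitors of vessel growth, rose by 0.72 and 0.77 (adjusted p = 0.00223 and 0.00286). Of 29 other endothelial genes, 16 fell and 0 rose, among them Sox7, a relative of Sox17 (-0.90), Ptprb, a phosphatase that acts on Tek (-0.99), and Cd93, a surface glycoprotein (-0.94). By probe set 22 of 53 fell, where 9.64% of all probe sets did. Of 15 genes of arterial, venous and Notch signalling, 4 fell and 0 rose (5 of 24 probe sets fell): Gja4 (-0.83), Dll4 (-0.38), Nr2f2 on 1 probe set (-0.43) and Efnb1 (-0.53). Another probe set of Nr2f2 went the other way without passing, with 0.18, 0.06 and 0.11 in males at 10, against -0.09, 0.04 and -0.02 in males at 0.

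At lower doses in males the blood vessel genes had the same sign. In males at 1 relative to males at 0, 12 of the 46 probe sets fell and 0 rose, where 3.63% of all probe sets passed, 2.1% lower and 1.53% higher. They belonged to 10 genes, namely Mcam and Egfl7 on both probe sets and Angpt1, Gpihbp1, Vegfb, Sox18, Esam, Rgs5, Cspg4 and Eng on 1 each. Mcam differed by -0.90 and -0.67 (adjusted p = 0.00466 and 0.00513), Vegfb by -1.07 (adjusted p = 0.0115), Angpt1 by -0.84 (adjusted p = 0.00607) and Gpihbp1 by -0.72 (adjusted p = 0.00636). The count was 5 without male replicate 1 at 0 or male replicate 9 at 1, 6 without male replicate 7 at 1, and 7 without male replicate 2 or 3 at 0. Shares over all probe sets are not given for these fits, so the counts do not set these genes apart from the rest. No count is given without the arrays with hepatocyte transcripts, as only male replicate 1 at 0 would be left as control. Of the lymphatic probe sets 0 of 6 passed at 1. In the further lymphatic list 3 of 21 probe sets were higher at 1 and 1 lower by limma. Those higher were Reln on 2 probe sets (1.21 and 1.29) and Cd9 (0.73), and Adm was lower (-0.69). In the further mural list 2 of 18 probe sets rose and 1 fell. Acta2 (0.68) and Cnn1 (1.26), also listed as basal epithelial markers, rose and Ndufa4l2 fell (-0.64).

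In males at 0.1, 0 of 46 probe sets passed, and 0% of all probe sets did, by limma. An unadjusted p under 0.05 was found for 25 of the 46, where 11.9% of all probe sets had one. The median of blood vessel genes was already -0.29 there. Angpt1 had 0.29, -0.02 and 0.14 in males at 0.1, against 0.98, 1.02 and 0.54 in males at 0 (difference -0.71, adjusted p = 0.316). With array weights 4 of the 46 passed at 0.1, where 0.58% of all probe sets did, and with the RNA quality measure of beta-actin as a covariate 7 passed, where 3.88% of all did, each of them lower.

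Group means of 25 of the 46 probe sets fell with each dose step in males, and 1 rose with each step, where 14.1% of all probe sets fell and 11.5% rose at every step. Of the 26 blood vessel probe sets 17 did so, of the 7 of factors 5, of the 7 of mural cells 3 and of the 6 lymphatic ones 0. Between males at 10 and males at 1, 3 probe sets fell and 0 rose, with 0.387% of all probe sets passing, 0.209% lower and 0.177% higher. These were Gpihbp1 (-0.81, adjusted p = 0.00852), Mcam on 1 probe set (-0.79, adjusted p = 0.0263) and Rgs5 (-0.44, adjusted p = 0.0461). The count was 0 without male replicate 8 at 1 or male replicate 11 at 10 and 1 without male replicate 9 at 1 or male replicate 12 at 10. Whether calls over all probe sets were lost alike in these fits is not given here.

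In females fewer of the genes passed. In females at 10 relative to females at 0, 6 of the 46 probe sets fell and 0 rose, where 1.86% of all probe sets passed, 1.05% lower and 0.812% higher. The median difference over the 46 was -0.18, against -0.01 over all probe sets. Mcam had -0.38, -0.35 and -0.32 on one probe set in females at 10, against 0.72, 0.44 and 0.37 in females at 0 (difference -0.86, SE 0.11, adjusted p = 0.00101). On the other it had -0.24, -0.43 and -0.21 in females at 10, against 0.67, 0.26 and 0.31 in females at 0 (difference -0.71, SE 0.15, adjusted p = 0.0193). Neither probe set of Mcam overlapped between the groups, and the one with -0.86, the second of those described in males, kept its call on leaving out any single array.

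The other calls in females at 10 were less stable. Egfl7 had -0.17, -0.17 and -0.20 on one probe set in females at 10, against 0.17, 0.23 and 0.17 in females at 0 (difference -0.37, SE 0.08, adjusted p = 0.0244), and the other differed by -0.34 (adjusted p = 0.0402). Vegfb had -0.44, -0.64 and -0.17 in females at 10, against 0.76, 0.16 and 0.39 in females at 0 (difference -0.85, SE 0.21, adjusted p = 0.0453). Kdr had -0.33, -0.05 and -0.03 on the probe set that had not passed in males, against 0.12, 0.33 and 0.35 in females at 0 (difference -0.40, SE 0.10, adjusted p = 0.0424). The groups did not overlap for these genes. The count of 6 was 1 without female replicate 1 at 0, female replicate 10 at 10 or female replicate 11 at 10, and 2 without female replicate 2 or 3 at 0. In these fits 0.509% to 0.838% of all probe sets passed. The count was 1 without the arrays with hepatocyte transcripts (0.332% of all probe sets passing), and 10 without the 2 arrays of widest spread (3.1% of all passing).

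No lymphatic probe set passed in females at 10, and the 6 differences lay between -0.13 and 0.12. Gpihbp1 had -0.11, -0.20 and -0.32 in females at 10, against 0.47, 0.24 and 0.09 in females at 0 (difference -0.48, adjusted p = 0.0665). Of the genes beyond the 36, Dll4, a Notch ligand of tip cells, fell by 0.40 (adjusted p = 0.0213) and Tal1, a transcription factor of blood and endothelial precursors, by 0.41 (adjusted p = 0.0297), while Acta2, the actin of smooth muscle and myoepithelium, rose by 0.62 (adjusted p = 0.0499). Of the other lymphatic and other angiogenic genes 0 passed by limma. The nearest were Vegfd, a ligand of Flt4 (difference 0.56, adjusted p = 0.0951), and Epas1 (-0.40, adjusted p = 0.0501).

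At 1 and at 0.1 in females 0 of 46 probe sets passed by limma, with 0% of all probe sets passing at either dose. An unadjusted p under 0.05 was found for 7 of the 46 at 1, where 2.73% of all probe sets had one, and for 15 at 0.1, where 9.93% had one. At 0.1 the second Mcam probe set had 0.02, -0.16 and -0.39, against 0.72, 0.44 and 0.37 in females at 0 (difference -0.69, adjusted p = 0.0652). Leaving out female replicate 4 at 0.1 gave 3 lower and 1 higher of the 46 at that dose, where 0.657% of all probe sets passed. Array weights gave 12 lower and 4 higher, where 5.6% of all passed, and these weights were 0.159, 3.48 and 0.451 for the 3 arrays at 0.1, so that fit rests mainly on 1 of them. Means of 2 of the 46 probe sets fell with each dose step in females, against 4.37% of all probe sets, and 0 rose at each step, against 3.37%. Between females at 10 and females at 1 the second Mcam probe set fell (difference -0.55, adjusted p = 0.0486), with 0.267% of all probe sets passing, 0.0838% lower and 0.184% higher. That call was lost without any 1 of female replicates 7 and 8 at 1 or 10, 11 and 12 at 10.

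The difference of the dose effects between the sexes was tested as an interaction, in which the effect of a dose in females is subtracted from that in males. At 10, 4 of the 46 probe sets had a negative interaction and 0 a positive one, where 1.28% of all probe sets passed, 0.754% negative and 0.525% positive. Angpt1 had the largest at -1.59 (SE 0.21, adjusted p = 0.00117). In females it had 0.05, 0.23 and 0.21 at 10, against 0.25, -0.04 and -0.03 at 0 (difference 0.10, 95% interval -0.21 to 0.42, adjusted p = 0.849), and the groups overlapped. Females at 0.1 had -0.34, -0.53 and -0.50 and at 1 -0.12, -0.33 and -0.64, below all 3 arrays at 10.

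The other interactions that passed were those of Gpihbp1 (-1.05, SE 0.18, adjusted p = 0.0128), of 1 probe set of Mcam (-0.98, SE 0.21, adjusted p = 0.0298) and of 1 probe set of Flt1 (-0.77, SE 0.18, adjusted p = 0.038). Gpihbp1 differed by -1.52 in males and by -0.48 in females, where it did not pass. That Mcam probe set passed in both sexes, with -1.68 in males and -0.71 in females. The Flt1 probe set had 0.01, 0.10 and 0.05 in females at 10, against -0.01, 0.16 and -0.24 in females at 0, and its groups overlapped there. The second Mcam probe set had an interaction of -0.29 (adjusted p = 0.347), and those of the other Flt1 probe sets were -0.72 and -0.39 (adjusted p = 0.0917 and 0.248). Prox1 had an interaction of 1.30 that did not pass (adjusted p = 0.0834). The calls of Angpt1 and Gpihbp1 were kept on leaving out any 1 of the 12 arrays, and those of Mcam and Flt1 in 4 of the 12 cases each. Both were lost without female replicate 3 at 0, female replicate 10 or 12 at 10, male replicate 1 or 3 at 0, or male replicate 11 or 12 at 10, Mcam also without female replicate 2 at 0 and Flt1 also without female replicate 11 at 10. The interaction was then -0.97 to -0.90 for Mcam and -0.79 to -0.67 for Flt1. At 1 and at 0.1, 0 of 46 interactions passed by limma, with 0.0483% (0.0451% positive and 0.00322% negative) and 0% of all probe sets passing. An unadjusted p under 0.05 was found for 18 of the 46 at 1, where 9.85% of all probe sets had one, and for 6 at 0.1, where 7.3% had one. Beyond the 36 genes, the water channel Aqp1 (-1.17, adjusted p = 0.038), Adm (-1.07, adjusted p = 0.0466) and 1 probe set of Cxcl12 (-0.61, adjusted p = 0.039) also had negative interactions at 10. Another probe set of Cxcl12 did not pass. It differed by -0.31 in females at 10 (adjusted p = 0.109) and by less in males, so its interaction had the opposite sign.

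**Figure D4:**
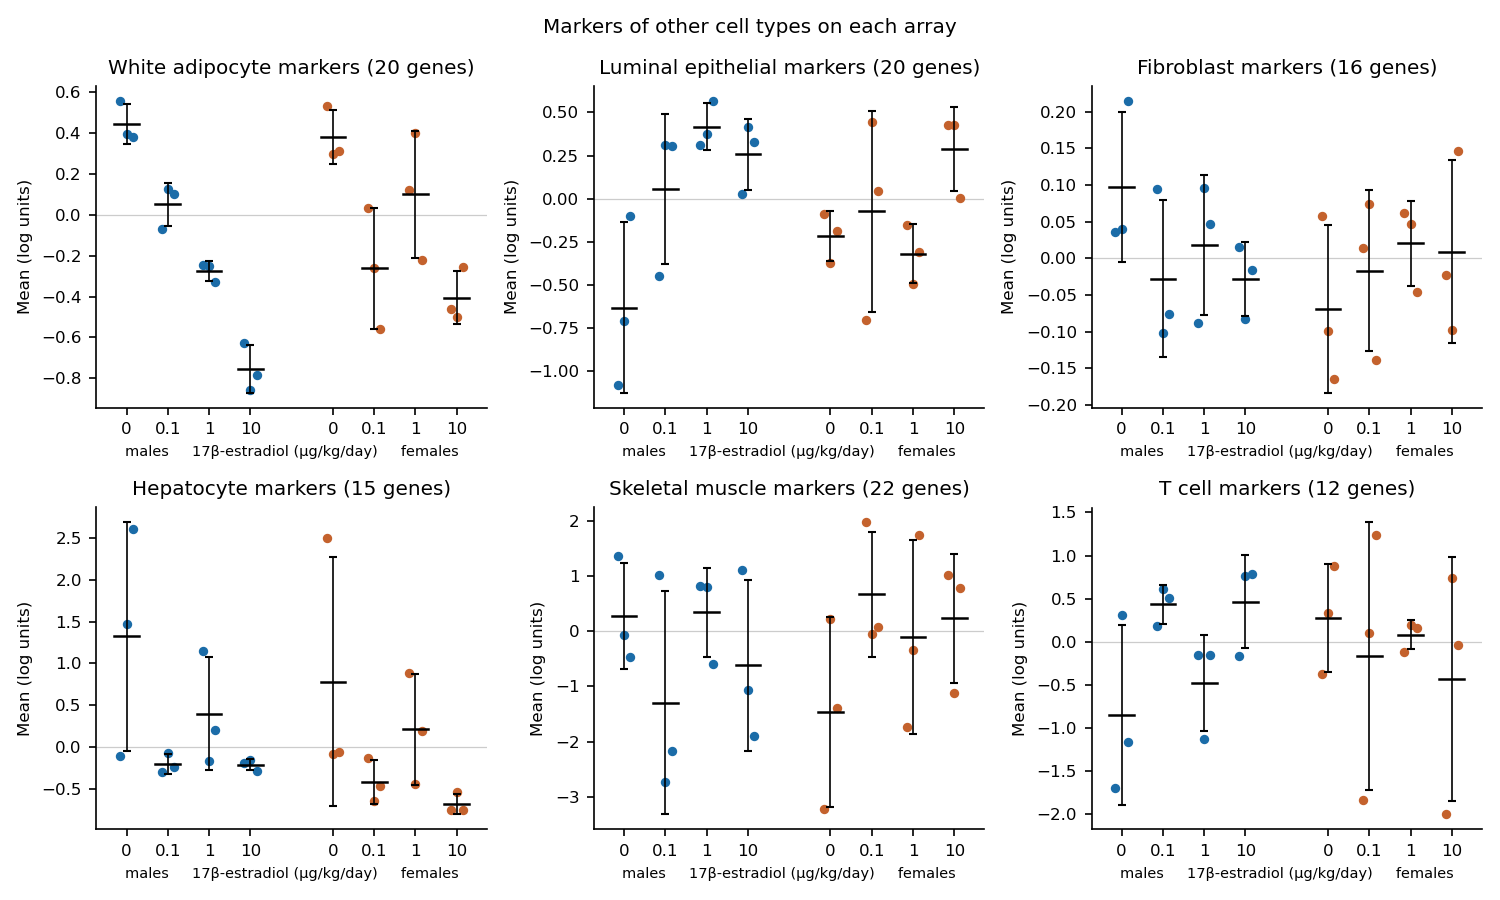
Mean over markers of 6 other cell types on each array, in log units centred within each sex, against the dose of 17β-estradiol in µg/kg/day, males in blue and females in orange; bars give the mean ± SD of 3 arrays. White adipocyte markers are lower at 10 than at 0 in both sexes with no overlap, and hepatocyte markers stand out on single arrays.

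Markers of other cell types moved beside the vascular genes. Of 20 white adipocyte genes, 19 fell and 0 rose in males at 10, and 15 fell and 0 rose in females at 10. By probe set 28 of 31 fell in males and 19 of 31 in females, where 9.64% and 1.05% of all probe sets did. Their mean was -0.63, -0.85 and -0.78 in males at 10, against 0.56, 0.39 and 0.38 in males at 0. In females it was -0.46, -0.50 and -0.26 at 10, against 0.53, 0.30 and 0.31 at 0. The means of adipocyte markers and of blood vessel genes were thus both lower on every array at 10 than on any at 0 in males. With the adipocyte mean as a covariate, 0 of the 46 probe sets and 0 of all 31042 passed by limma in males at 10 or in females at 10. An unadjusted p under 0.05 was then found for 10 of the 46 in males (6 of them lower) and 12 in females (5 lower), where 5.89% and 13.2% of all probe sets had one. The median difference of the 46 in males was then -0.03 in place of -0.48. Gpihbp1 and Angpt1 stood at -0.82 and -1.14, and the 2 probe sets of Mcam at -0.69 and -0.27. As the adipocyte means of the groups do not overlap, that covariate and the dose cannot be told apart by this fit. For the interaction at 10, Angpt1 still passed with the covariate, with 1 of 46 called and 0.106% of all probe sets.

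Epithelial markers moved the other way. Of 20 luminal genes 7 rose and 0 fell, and of 12 basal genes 6 rose and 1 fell in males at 10; in females at 10, 3 luminal and 2 basal genes rose and 0 fell. Of 16 fibroblast genes 2 rose and 6 fell in males at 10. By probe set in males at 10, 7 of 22 luminal and 7 of 17 basal ones rose, 1 basal one fell, and of 23 of fibroblasts 2 rose and 9 fell. Over all probe sets 7.81% rose and 9.64% fell in males at 10. In females at 10, 3 of 22 luminal and 2 of 17 basal probe sets rose, where 0.812% of all rose and 1.05% fell. The gap between the 3′ and 5′ control probe sets of beta-actin, a sign of RNA quality, was -0.02, 0.16 and 0.05 in males at 10, against -0.56, -0.06 and -0.28 in males at 0, and with it as a covariate 12 of the 46 fell and 0 rose, where 2.38% of all probe sets passed. Those 12 included both probe sets of Mcam and of Erg and those of Angpt1, Gpihbp1, Rgs5, Sox18, Tie1 and Vegfb. Vegfc, Prox1 and Lyve1 did not pass under that covariate. As the beta-actin gaps of males at 10 and at 0 do not overlap, that covariate and the dose cannot be told apart by this fit. No count is given for males at 10 without the arrays with hepatocyte transcripts, as only male replicate 1 at 0 would be left as control. Without the 2 arrays of widest spread 23 fell and 2 rose in males at 10, where 12.8% of all probe sets passed.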

How the data were processed

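RNA from whole mammary gland pairs was hybridised to Affymetrix arrays, 24 in all, per the labels' protocols. The authors deposited 1 table of signed log values for 31099 probe sets, used here as log2 values. GCOS is named per the submitters' processing notes; how they were summarized, normalized and centred, and in which log base, is not given in the sources used here. Within a sex no probe set spanned over 7.52 units. In every probe set 3 to 9 of the 12 arrays of a sex lay above 0, the bounds that a median over 18 arrays of the sex, 12 of them used here, would give. The 2 values around 0 were equal in size and opposite in sign (tolerance 2e-06) in 45.3% of probe sets over female arrays and 41.9% over male arrays, where such a median would give 43.1%. The values are therefore called centred within each sex, though 0 is not the median of the 12. Array medians lay between -0.0176 and 0.0132, so nothing further was normalized. No value was missing, 0 columns were left unmapped and 0 pairs of arrays were identical.

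Leaving out 57 controls, 31042 probe sets were fitted with 8 group means by lmFit and eBayes in limma 3.58.1 under R 4.3.3 (16 residual and 2.95 prior degrees of freedom), after a check on simulated data. P-values were two-sided and adjusted by Benjamini-Hochberg over all of them, with a threshold of 0.05. By the platform annotation 20826 probe sets have 1 gene, and 20758 of these matched RefSeq by gene number. The doses within a sex share 3 arrays at 0. Array number limits the precision.

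The genes, gene lists and tests were chosen with earlier results of these data known. Probe sets that passed at 10 in either sex or in an interaction are given in full (up to 30 by p), with up to 4 genes of each other list that passed, and others by range or count. Each list is the mean of its genes per array. Adamts1 and Thbs2 fall outside that rule and were named after their values were seen. Alternatives were array weights, robust eBayes, quantile normalization, gene averages, fewer arrays or probe sets, covariates, a replicate block and another threshold.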

Additional observations from a re-analysis of the deposited data

Results flagged for a closer look

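Of the vascular probe sets, 4 had a dose effect at 10 that differed between males and females by the interaction test. That of Angpt1 was -1.59 (adjusted p = 0.00117): the gene fell on all 3 arrays of males at 10 and was close to its control values in females at 10. That of Gpihbp1 was -1.05 (adjusted p = 0.0128), with a difference of -1.52 in males and of -0.48 in females, where it did not pass (adjusted p = 0.0665). One probe set of Mcam had -0.98 (adjusted p = 0.0298), and the other, with its -0.29, did not pass. One probe set of Flt1 had -0.77 (adjusted p = 0.038), while 2 others had the same sign and did not pass. White adipocyte markers fell at 10 in both sexes, and their part in these interactions was not tested beyond the covariate fit, under which Angpt1 passed and the other 3 did not.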

How the results depend on the processing

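Counts below are of the 46 vascular probe sets that passed. The share over all probe sets changed with the setting too, so a count alone does not set these genes apart from the rest. Males at 10 against 0 had 31, where 17.5% of all probe sets passed, and 25 to 27 on leaving out each array in turn. The count was 11 against the arrays at 0.1, 12 with the beta-actin covariate, 8 by an unadjusted p under 0.05 with a 2-fold difference and 0 with the adipocyte covariate. Of the 31, 25 kept the call whichever array was left out. Males at 1 had 12 (5 to 9 on leaving out an array), where 3.63% of all probe sets passed in the main fit. The arrays of the sex alone gave 19 (5.55% of all), quantile normalization 5 (2.76%) and the unadjusted rule 1 (0.973%). The adipocyte covariate gave 0 (0% of all), and leaving out the 2 widest arrays 6. The fit without the arrays with hepatocyte transcripts keeps 1 male array at 0 and is not counted for males. Males at 0.1 had 0 (0 to 0), 4 with array weights (0.58% of all probe sets) and 7 with the beta-actin covariate (3.88% of all). Males at 10 against 1 had 3 (0 to 3), where 0.387% of all probe sets passed in the main fit. The count was 7 with array weights, 5 with the arrays of the sex alone and 1 with the 2 groups compared alone. It was 0 with either the beta-actin or the adipocyte covariate, after quantile normalization and by the unadjusted rule.

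Females at 10 against 0 had 6, where 1.86% of all probe sets passed (1 to 5 on leaving out an array, with 0.509% to 1.78% of all). The count was 10 without the 2 widest arrays (3.1% of all). It was 1 with the 2 groups or the arrays of the sex alone or without the hepatocyte arrays (0.409%, 0.235% and 0.332% of all). It was 0 against the arrays at 0.1, by the unadjusted rule and with the adipocyte covariate (0.944%, 0.802% and 0% of all). Females at 1 had 0 (0 to 0) under every alternative. Females at 0.1 had 0 (0 to 4, with 4 without replicate 4, where 0.657% of all probe sets passed). The count was 16 with array weights (5.6% of all) and 3 without the 2 widest arrays (0.522%). It was 1 with gene averages (0.19% of all genes) or quantile normalization (0.0193% of all). Females at 10 against 1 had 1 (0 to 2), where 0.267% of all probe sets passed in the main fit. The count was 0 with the beta-actin, hepatocyte and muscle, or adipocyte covariates, with gene averages, probe sets of 1 gene, the 2 groups or the arrays of the sex alone. The unadjusted rule and leaving out the hepatocyte arrays also gave 0. In the fits with 0, 0.00322% to 0.393% of all passed.

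The interaction at 10 had 4, where 1.28% of all probe sets passed (2 to 5 on leaving out an array, with 0.209% to 1.85% of all). Array weights gave 17, where 11.2% of all passed, and gene averages 2, where 0.767% of all genes did. The beta-actin covariate, the adipocyte covariate and quantile normalization gave 1 each, where 0.0741%, 0.106% and 0.435% of all passed. At 1 the interaction had 0 (0 to 0), and 1 by the unadjusted rule (0.918% of all). At 0.1 it had 0 (0 to 0). With the replicate number as a block the interactions gave 4, 0 and 0 calls, where 1.43%, 0.087% and 0% of all probe sets passed. At 10, 3 of these 4 were negative and 1 positive, where the main fit had 4 negative and 0 positive. Mcam and Flt1 were not among those at 10. Of 12 same-numbered pairs of a male and a female array, 5 deviated together (correlation over 0.1, with a range over the 12 from -0.485 to 0.592). These were numbers 4, 5 and 6 at 0.1 and 10 and 11 at 10, with 0.445 to 0.592. Whether same-numbered arrays were handled together was not tested.

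With the adipocyte covariate these changed sign at 10 against 0: in females Vegfb (0.23), and in males Cspg4 (0.19), Edn1 (0.40), Esam (0.0292), Flt1 (0.0273 and 0.13), Nos3 (0.0157), Sox17 (0.20 and 0.23) and Vegfb (0.13), none past the threshold. For the other moves the cause was not tested. The reference at 0.1 and the removal of the 2 widest arrays were chosen after seeing the data.

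Centred values do not show whether a gene was above background, so dim genes cannot be set apart. With 3 arrays a group, small differences such as those of Pecam1 and Lyve1 rest on each array.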
